A study of Mus musculus with 8 samples.

Results

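The genes described here are 38 mouse genes of autophagy and the lysosome, listed by name. The rule that picks them uses no measured value, although the list was drawn up with earlier results of these data known. They are 9 genes of autophagy initiation, 12 of the conjugation systems and the LC3 family, 1 cargo receptor (Sqstm1) and 3 MiT/TFE transcription factors. To these come 4 genes of lysosomal membrane proteins and 9 of lysosomal hydrolases. All 38 were found on the array and tested, among 18848 genes in all. Atg13, Atg14, Tfeb and Tfe3 stood under older names (D2Ertd391e, D14Ertd436e, Tcfeb and Tcfe3) in the array's annotation.

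Primary mouse embryonic fibroblasts, purchased connective tissue cells of the mouse embryo, spent 24 h at 1% oxygen (hypoxia) or at atmospheric oxygen (normoxia), with the same high-glucose, serum-containing medium in both groups. RNA from 4 hypoxia and 4 normoxia samples was amplified and read on Mouse Exon 1.0 ST arrays, on which a gene is covered by a number of probe sets that mostly lie in different exons. The methods call the replicates biological, but the number of replicates they state differs from that of the labels, which was followed here. Neither strain nor cell lot, scan time or batch is stated there, and a batch effect could not be examined. The p-values set the difference between the groups against the spread between these samples.

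Autophagy encloses part of the cytoplasm in a double membrane, the autophagosome, which fuses with the lysosome so that hydrolases digest its content. A kinase complex and a lipid kinase complex start the membrane, and ubiquitin-like conjugation systems then attach LC3 and GABARAP proteins to its lipids. The step is controlled to a large extent on proteins, by phosphorylation and lipidation, so transcript levels do not measure the flux of material through the pathway. TFEB and its relatives are transcription factors that drive many lysosomal and autophagy genes by binding an E-box, CACGTG, in their promoters, while hypoxia-inducible factors bind the shorter core ACGTG or GCGTG.

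The promoters were searched for these motifs in the RefSeq sequences of GRCm38.p6 that run from 250 bases before to 50 bases after each gene's start. Of the 38 genes 31 had a promoter in the sequence table. CACGTG, a palindrome that reads the same on both strands, stood in the promoter of 10 of the 31 (32.3%), against 8.09% of 27025 genes and 7.15% of 32851 promoters in the table. These were Atg14, Atg3, Atg5, Atg7, Lamp1, Mcoln1, Ctsa, Ctsd, Ctsl and Gla. The longer form TCACGTGA stood in 5 of them (16.1% of the 31, against 1.12% of genes).

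The hypoxia-inducible factor core ACGTG, searched on both strands and contained in the E-box, stood in 15 of the 31 (48.4% against 21.8% of genes), and in 7 (22.6% against 15.3%) where the letters lay outside an E-box. The other core, GCGTG, on either strand, stood in 17 (54.8% against 35.2%). The matches are a description of letters in this window, and no binding was measured.

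The following 6 stretches show E-boxes before the start of the 5 genes with TCACGTGA and of Lamp1, which had 4 copies of CACGTG. Left out are 1 further copy each in Ctsa, 5 bases after the start, and in Ctsd, which begins 245 bases before it. Each is written from 5′ to 3′ on the gene's own strand, with CACGTG in capitals and the rest in lower case.
Mcoln1, chr8:3500436-3500491, plus strand: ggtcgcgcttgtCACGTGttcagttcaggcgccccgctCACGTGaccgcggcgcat
Lamp1, chr8:13159088-13159160, plus strand: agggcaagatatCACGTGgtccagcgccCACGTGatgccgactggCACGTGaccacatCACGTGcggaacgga
Ctsa, chr2:164833749-164833772, plus strand: tgagcaaactgtCACGTGatgcag
Ctsd, chr7:142387908-142387937, minus strand: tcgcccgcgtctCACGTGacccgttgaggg
Gla, chrX:134601182-134601244, minus strand: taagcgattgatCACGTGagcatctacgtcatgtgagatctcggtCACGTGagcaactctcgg
Atg3, chr16:45158723-45158775, plus strand: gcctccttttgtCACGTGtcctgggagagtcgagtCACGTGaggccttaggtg
The stretches of Lamp1 and Ctsa end 1 base before the annotated start, and that of Gla lies from 239 to 177 bases before it. The log2 fold changes of the 10 genes with CACGTG ran from -0.46 (Atg5) to 0.19 (Ctsl), and were not compared with those of the genes without it.

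Gene values below are mean log2 intensities over the gene's probe sets at or above the table's median brightness, and fold changes are hypoxia over normoxia from limma, adjusted over all 18848 genes. None of the 38 genes was called at an adjusted p of 0.05, either higher or lower in hypoxia, and none was called under any of 17 other ways of processing. Over all genes 250 (1.33%) were called, 100 higher (0.531%) and 150 lower (0.796%). The split of all calls depended on scaling, with 126 higher and 53 lower after quantile normalization, 146 and 34 after cyclic loess, and 141 and 8 after each array was centred on its gene median. The lowest adjusted p among the 38 genes was 0.0762, for Atg4b, and over the other ways of processing it was 0.0575, for the same gene. At an unadjusted p under 0.05, 9 of the 38 were lower (23.7%, against 20.4% of all genes) and 0 were higher (against 3.02% of all genes). The 9 were Ulk1, Becn1, Wipi2, Atg4b, Atg5, Atg7, Sqstm1, Mcoln1 and Hexa. A share of 23.7% lay close to the background.

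With dim probe sets filtered out, most genes shared a shift towards lower values in hypoxia, against which the fold changes are also given. Across the 18848 genes the log2 fold changes had a median of -0.19 and were negative for 75.7%. The size of this shift depended on the filter, since the all-gene median was -0.05 when no filter was used. After centring, which moves the median of all genes to about 0, 7 of the 38 were higher and 1 was lower at an unadjusted p under 0.05 (against 7.33% and 5.35% of all genes), and 0 were called. The median of the 38 genes was -0.07, which lay 0.12 above that of all genes, and 25 of the 38 (65.8%) lay above the all-gene median (50% of all genes). This difference was absent when no filter on dim probe sets was used, where the median was -0.06 over the 38 genes and -0.05 over all genes (476 of 21656 genes called, 2.2%, and 0 of the 38). Odorant and vomeronasal receptor genes, 310 used as a reference for dim signal, had a median of -0.03. The mean levels of all 38 genes lay above the median level of those receptor genes, and 34 lay above their upper quartile (3.63). On the deposited scale 28 of the 38 fold changes were negative and 10 positive, and after centring 25 were positive.

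**Figure D1:**
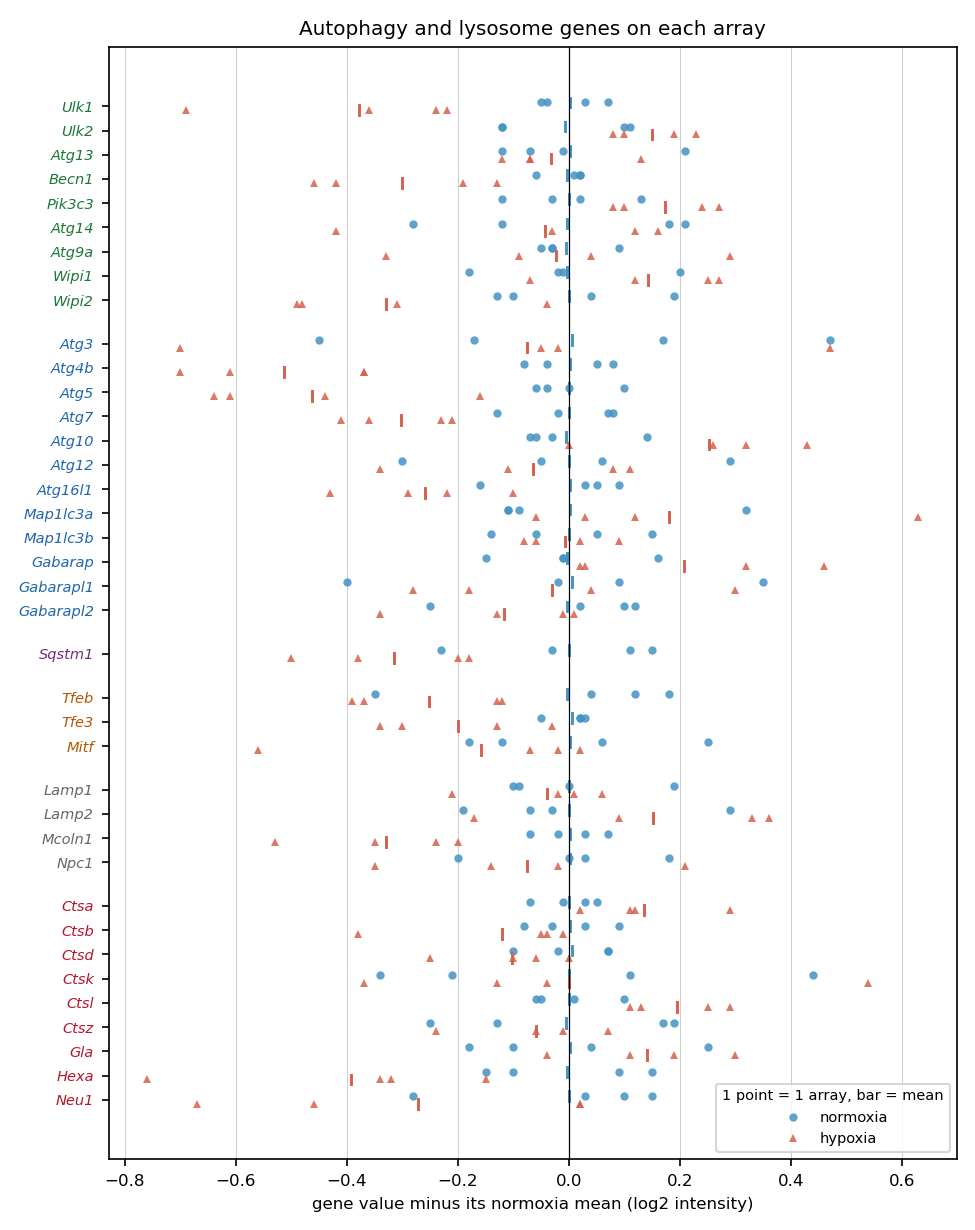
Values of the 38 genes on each of the 8 arrays, as log2 intensity minus the gene's normoxia mean, with genes ordered and coloured by role. Circles are normoxia arrays, triangles hypoxia arrays and short bars group means (n = 4 each). The hypoxia arrays lie wholly below the normoxia arrays for 6 genes and wholly above them for 1, Ctsl. Over all genes tested the shares are 14.5% and 1.87%.

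The precision of the arrays set what could be seen. The 95% intervals of the 38 fold changes reached a median of 0.31 to either side on the log2 scale (0.24 to 0.62). All 38 intervals lay within a 2-fold change in either direction and 27 within 1.5-fold, but only 3 within 1.25-fold. The bounds farthest from 0 were -0.79 (1.73-fold lower, Atg4b) and 0.59 (Map1lc3a). The smallest difference called for any gene on the array was 0.52, a 1.43-fold change, so that the differences measured for these genes (-0.51 to 0.26) were smaller than any called with this processing. The intervals are on the deposited scale and move with the scaling.

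**Figure D2:**
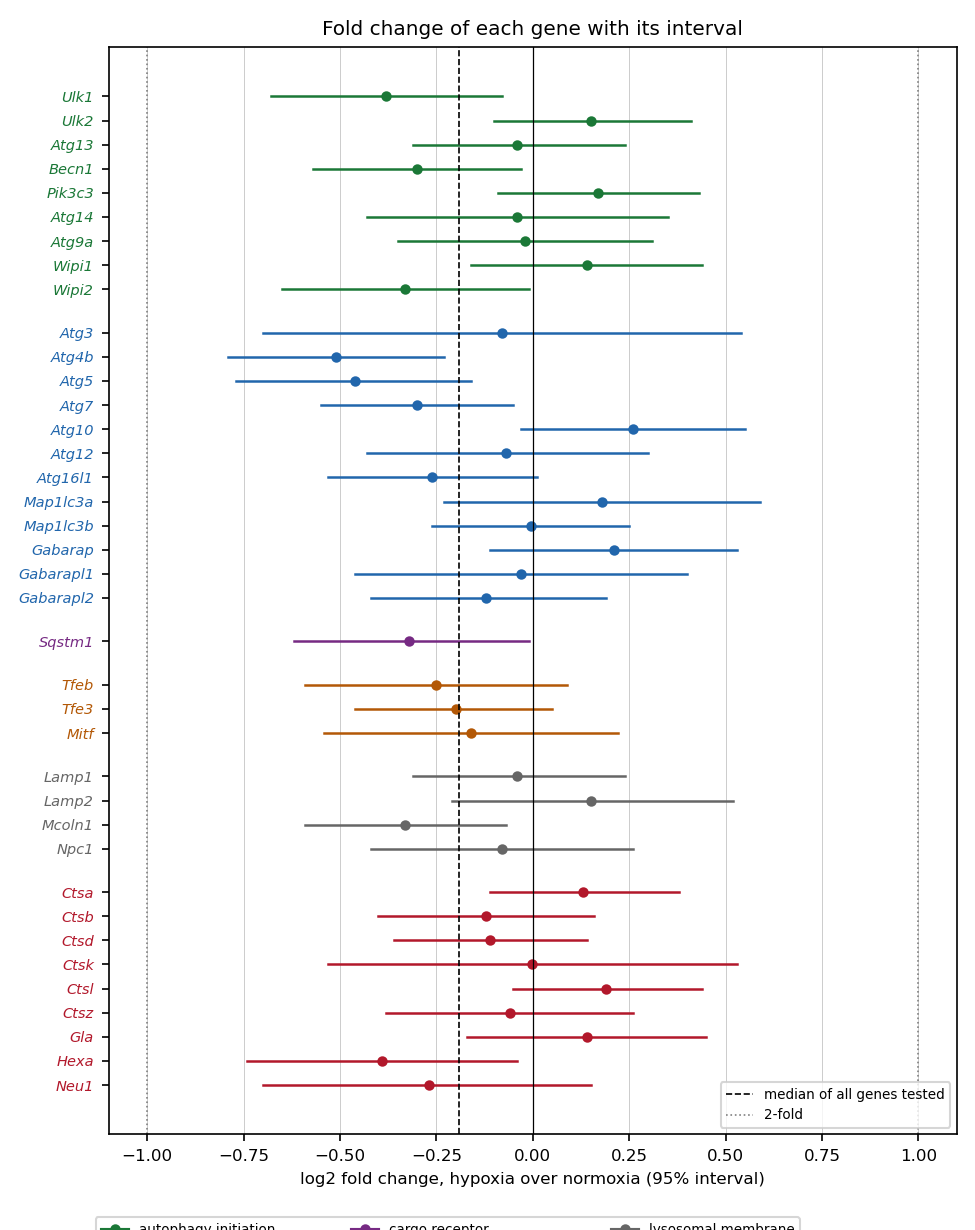
Log2 fold change of each gene, hypoxia over normoxia, with its 95% interval from limma (4 arrays a group). Points are coloured by role, the dashed line is the median of all genes tested (-0.19) and the dotted lines mark a 2-fold change. The intervals of 9 genes, all lower in hypoxia, exclude 0 before adjustment, and none reaches a dotted line.

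Autophagy initiation was represented by the kinases Ulk1 and Ulk2, their partner Atg13, the lipid kinase Pik3c3 with its subunits Becn1 and Atg14, the membrane protein Atg9a, and Wipi1 and Wipi2, which bind the lipid that the kinase makes. Its 9 genes had a median log2 fold change of -0.04, with 6 negative and 3 positive values and none called. The furthest from 0 was Ulk1, on chromosome 5, with normoxia arrays at 5.13, 5.12, 5.20 and 5.24 and hypoxia arrays at 4.81, 4.93, 4.95 and 4.48. All hypoxia arrays lay below all normoxia arrays, and the fourth hypoxia array lay lowest. The means were 5.17 ± 0.06 and 4.79 ± 0.22 (SD, n = 4), a log2 fold change of -0.38 (SE 0.13, 95% interval -0.68 to -0.08) with a limma adjusted p of 0.14. Set against the all-gene median, Ulk1 differed by -0.19.

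Becn1, described in full after its values were seen, read 4.45, 4.53, 4.53 and 4.52 in normoxia and 4.05, 4.38, 4.09 and 4.32 in hypoxia. Its log2 fold change was -0.30 (SE 0.12, adjusted p = 0.18). The hypoxia arrays formed a lower pair (replicates 1 and 3) and a higher pair, while the normoxia arrays differed little. For Wipi2 the value was -0.33 (SE 0.14, adjusted p = 0.20), with overlapping groups. The lipid kinase itself, Pik3c3, had 0.17 (95% interval -0.09 to 0.43), Ulk2 had 0.15 (-0.10 to 0.41) and Wipi1 had 0.14 (-0.16 to 0.44). Atg13 (-0.04), Atg14 (-0.04) and Atg9a (-0.02) lay within 0.04 of 0. Within the initiation genes, the paralogs thus stood on opposite sides of 0, Ulk1 below and Ulk2 above, Wipi2 below and Wipi1 above, and neither difference between paralogs was tested.

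Conjugation runs through Atg7, the activating enzyme, Atg3 and Atg10, the conjugating enzymes, the Atg12, Atg5 and Atg16l1 complex, and Atg4b, a protease that trims LC3 and also releases it from lipid. The 12 genes of this role, with the LC3 family, had a median of -0.07, with 9 negative and 3 positive values. Atg4b, on chromosome 1, lay furthest from 0 of all 38 genes. Its normoxia arrays read 4.46, 4.49, 4.33 and 4.37 and its hypoxia arrays 4.04, 3.71, 4.04 and 3.80. No hypoxia array reached the lowest normoxia array, and the gap between the groups was wider than the range within normoxia. The means were 4.41 ± 0.07 and 3.90 ± 0.17 (SD, n = 4), a log2 fold change of -0.51 (SE 0.12, 95% interval -0.79 to -0.23), or 1.43-fold lower, with an adjusted p of 0.0762. Across the other ways of processing the fold change ran from -0.69 to -0.32 and the adjusted p from 0.0575 to 0.33.

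Atg5, which is joined to Atg12 and is needed to extend the membrane, gave a similar picture (described in full after its values were seen). Normoxia arrays read 4.36, 4.26, 4.20 and 4.22 and hypoxia arrays 3.82, 3.65, 4.10 and 3.62, so that 3 hypoxia arrays lay well below normoxia and the third lay just under it. The log2 fold change was -0.46 (SE 0.14, adjusted p = 0.11). For the activating enzyme Atg7 the hypoxia arrays (4.15, 4.02, 4.17 and 3.97) all lay below the normoxia arrays (4.46, 4.25, 4.36 and 4.45), and the log2 fold change was -0.30 (SE 0.11, adjusted p = 0.16). Atg16l1 had -0.26 (adjusted p = 0.23). The other conjugation genes lay nearer to 0 or above it, with Atg12 at -0.07, Atg3 at -0.08 and Atg10 at 0.26 (95% interval -0.03 to 0.55, adjusted p = 0.26). Atg3 was the least precise of the 38, with arrays between 4.13 and 5.05 in normoxia and between 3.88 and 5.05 in hypoxia and an interval from -0.70 to 0.54.

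Among the LC3 and GABARAP proteins, which carry the lipid on the autophagosome, none of the 5 genes showed a difference beyond its spread. Map1lc3b, whose protein is the usual marker of autophagosomes, was measured closely, with normoxia arrays at 6.02, 6.31, 6.21 and 6.10 and hypoxia arrays at 6.18, 6.08, 6.25 and 6.10. The hypoxia arrays all fell inside the normoxia range, and the 95% interval of the log2 fold change ran from -0.26 to 0.25, that is from 0.83-fold to 1.19-fold. Gabarapl1 had -0.03 (-0.46 to 0.40) and Gabarapl2 -0.12 (-0.42 to 0.19). Gabarap had 0.21 (-0.11 to 0.53) and Map1lc3a 0.18 (-0.23 to 0.59). Each of these genes had a single probe set far above the rest, as described below. When the median of the probe sets was taken instead of the mean, the value of Map1lc3a turned to -0.35 and that of Gabarap became 0.57. The 0.57 exceeds the difference of every Gabarap probe set except that single one (1.52), the next being 0.38. It is therefore not a value free of that probe set.

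Sqstm1 (p62), on chromosome 11, binds ubiquitinated cargo and LC3 and is itself degraded with the cargo. Its arrays read 6.22, 6.40, 6.36 and 6.02 in normoxia and 5.75, 6.05, 6.07 and 5.87 in hypoxia. The groups overlapped, since 2 hypoxia arrays lay above the lowest normoxia array. The means were 6.25 ± 0.17 and 5.93 ± 0.15 (SD, n = 4), a log2 fold change of -0.32 (SE 0.13, 95% interval -0.62 to -0.01) with an adjusted p of 0.20.

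The 3 MiT/TFE factors listed are regulators of the lysosomal gene set. Tfeb, on chromosome 17, lay furthest from 0 of the 3, with normoxia arrays at 4.16, 3.69, 4.22 and 4.08 and hypoxia arrays at 3.91, 3.67, 3.92 and 3.65. The second normoxia array lay among the hypoxia arrays, and the groups overlapped. Its log2 fold change was -0.25 (SE 0.15, 95% interval -0.59 to 0.09, adjusted p = 0.34). Tfe3 had -0.20 (SE 0.11, adjusted p = 0.31) and Mitf -0.16 (SE 0.17, adjusted p = 0.58). All 3 were negative, as were 75.7% of all genes, and their median of -0.20 lay 0.01 below the all-gene median. These factors are regulated largely by their movement into the nucleus, which arrays do not measure.

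Of the 4 membrane genes, Lamp1 and Lamp2 encode the abundant glycoproteins that line the lysosome, Mcoln1 its calcium channel and Npc1 the protein that exports cholesterol. Mcoln1, on chromosome 8, read 4.79, 4.84, 4.89 and 4.93 in normoxia and 4.66, 4.33, 4.62 and 4.51 in hypoxia. Every hypoxia array lay below every normoxia array, the first by the least. The means were 4.86 ± 0.06 and 4.53 ± 0.14 (SD, n = 4), a log2 fold change of -0.33 (SE 0.12, 95% interval -0.59 to -0.07) with an adjusted p of 0.14. The other membrane genes had overlapping groups. Lamp1 had a log2 fold change of -0.04 (-0.31 to 0.24), Npc1 of -0.08 (-0.42 to 0.26) and Lamp2 of 0.15 (-0.21 to 0.52).

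Hydrolases were represented by the cathepsins Ctsb, Ctsk, Ctsl and Ctsz, which are cysteine proteases, Ctsd, an aspartic protease, Ctsa, a serine carboxypeptidase that also protects other lysosomal enzymes, and the glycosidases Gla, Hexa and Neu1. Their median was -0.06, with 6 negative and 3 positive values. Hexa, the alpha subunit of beta-hexosaminidase on chromosome 9, lay furthest from 0. Its normoxia arrays read 6.14, 6.38, 6.44 and 6.19 and its hypoxia arrays 5.97, 5.95, 6.14 and 5.53. The third hypoxia array matched the lowest normoxia array, the other hypoxia arrays lay below all of them, and the fourth lay lowest. The means were 6.29 ± 0.15 and 5.90 ± 0.26 (SD, n = 4), a log2 fold change of -0.39 (SE 0.16, 95% interval -0.74 to -0.04) with an adjusted p of 0.18.

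The cathepsin L gene Ctsl was the 1 gene of the 38 whose hypoxia arrays all lay above its normoxia arrays (all genes, 1.87%). It read 7.81, 7.96, 7.87 and 7.80 in normoxia and 7.97, 7.99, 8.15 and 8.11 in hypoxia, so that the lowest hypoxia array lay just above the highest normoxia array. The log2 fold change was 0.19 (SE 0.11, 95% interval -0.05 to 0.44, adjusted p = 0.31), and over the other ways of processing, relative ranks aside, it ran from 0.0033 to 0.38. In the opposite direction 6 of the 38 genes did not overlap (Ulk1, Becn1, Atg4b, Atg5, Atg7 and Mcoln1), against 14.5% of all genes. Ctsa had 0.13 (-0.11 to 0.38) and Gla 0.14 (-0.17 to 0.45). Ctsb had -0.12 (-0.40 to 0.16) and Ctsd -0.11 (-0.36 to 0.14), both among the narrower intervals. Ctsk (interval -0.53 to 0.53), Ctsz (-0.38 to 0.26) and Neu1 (-0.70 to 0.15) were less precise.

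Array to array spread was larger in hypoxia. The SD was higher in hypoxia than in normoxia for 25 of the 38 genes (65.8%, against 60.1% of all genes), with median SDs of 0.17 and 0.14. Across whole arrays, correlations over all probe sets ran from 0.859 to 0.878 within hypoxia, from 0.923 to 0.944 within normoxia and from 0.876 to 0.905 between the groups. Of 11 fibroblast markers the brightest was Vim (level 10.16) and the dimmest Fap (3.44, under the upper quartile of the odorant and vomeronasal receptor genes). Their summed linear intensity was 3015 to 3083 in normoxia and 2882 to 2951 in hypoxia, without overlap. The markers did not move together, with 4 positive and 7 negative fold changes, from -0.64 (Pdgfrb) to 0.49 (Col3a1), and 0 called. Macrophages are rich in lysosomal transcripts, and the summed intensity of 11 macrophage markers was 164 to 248 in normoxia and 135 to 248 in hypoxia, with 0 called. Of these 11 markers 10 had negative fold changes, and Lyz2 lay furthest from 0, at -1.18 (adjusted p = 0.0821), with every hypoxia array below every normoxia array. Aif1, the dimmest (level 2.86, below the odorant receptor median), had 0.46 (adjusted p = 0.15). Sums over 6 epithelial markers (79 to 113 and 78 to 100) and 6 endothelial markers (66 to 85 and 64 to 78) overlapped too, with 0 called. Fewer cells of a type and less RNA per cell cannot be told apart in such bulk samples, and the part of other cells in the values was not tested.

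Single probe sets were then examined, as the finest unit of the deposited table. A probe set was counted as higher or lower where an exact one-sided rank-sum test of 4 against 4 arrays gave a p of up to 0.0286, the largest value under 0.05 that this design allows. Of the 602 probe sets kept for the 38 genes, 35 (5.81%) were higher and 63 (10.5%) lower, against 3.62% and 11.1% of the 191376 probe sets kept for all genes. Without the filter the shares were 6.48% and 6.03% over all 641130 probe sets, and 5.32% and 7.95% over the 307991 that name 1 gene. Among the kept probe sets the share of lower ones in the 38 genes lay close to that of all genes. In 10 of the 38 genes probe sets passed in both directions. More probe sets passed as lower than as higher for 21 genes, and the reverse held for 11. Such counts of genes were not made over all genes, so they do not set the 38 apart. Initiation genes had 14 higher and 16 lower of 209, conjugation and LC3 genes 6 and 16 of 134, MiT/TFE genes 1 and 4 of 52, membrane genes 7 and 8 of 84 and hydrolase genes 7 and 14 of 110. Sqstm1 stood highest by share, with 0 higher and 5 lower of 13 (38.5%), but it is a single gene whose probe sets read the same transcript.

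**Figure D3:**
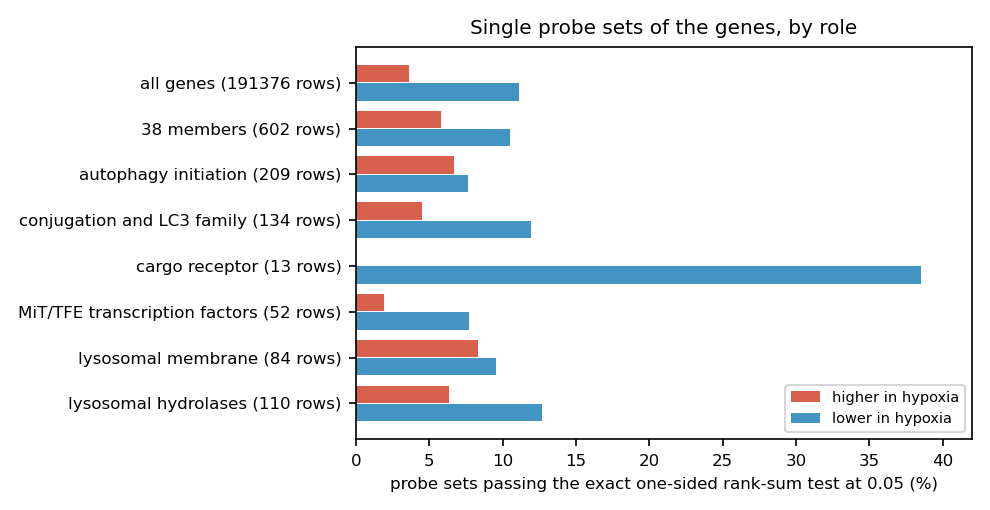
Percentage of kept probe sets that passed the exact one-sided rank-sum test at 0.05 as higher (red) or lower (blue) in hypoxia, for all genes, the 38 genes and each role, with the number of probe sets in parentheses. The 38 genes have 5.81% higher and 10.5% lower, against 3.62% and 11.1% over all genes, and the cargo receptor bar is 13 probe sets of Sqstm1 alone.

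Probe sets of 1 gene did not always go together. Hexa was the most uniform, with all 15 of its kept probe sets negative (-1.03 to -0.01) and 5 of them lower by the rank-sum test. For Atg4b, with the lowest p of the 38, 1 of 13 probe sets was positive but only 2 passed as lower. Lamp2 had 5 probe sets higher and 1 lower of 17, and Ulk2 had 4 higher and 1 lower of 41, while Wipi1 had 5 higher and 0 lower of 19. Ulk1 had 4 lower and 0 higher of 34.

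In 2 genes of the LC3 family a single probe set stood far from the rest (both were chosen after their values were seen, and no test per probe set was made beyond the rank sums). Of the 7 probe sets of Map1lc3a, 1 read 2.03, 2.97, 1.57 and 2.03 in normoxia and 4.44, 3.97, 5.15 and 3.94 in hypoxia. It was dim in normoxia on every array and well above that in hypoxia on every array, a log2 difference of 2.23. Its normoxia mean of 2.15 lay below the brightness filter, which it passed through its hypoxia mean of 4.38. In all, 6 of the 35 probe sets counted as higher passed in this way, while 5 of the 63 counted as lower passed through their normoxia mean. Among the 7, the fold changes reached down to -0.86, and 1 other passed as lower. Of the 8 probe sets of Gabarap, 1 read 7.49, 8.72, 7.99 and 7.67 in normoxia and 8.84, 9.09, 9.80 and 10.24 in hypoxia, a log2 difference of 1.52. The groups of that probe set did not overlap, although the second normoxia array came close. Meanwhile 2 other Gabarap probe sets passed as lower. Which exons or transcripts these probe sets read was not examined here.

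The wider pathway was read from 5 lists of 99 further genes, of which 92 were tested. In these, 3 genes were lower (against 0.796% of all genes) and 0 higher (against 0.531%) at an adjusted p of 0.05. At an unadjusted p under 0.05, 24 of the 92 were lower (26.1%, against 20.4% of all genes) and 0 were higher (against 3.02%). The medians, against -0.19 over all genes, were -0.19 over 23 other autophagy core genes and -0.18 over 5 other cargo receptors. Over 15 subunits of the V-ATPase, the proton pump that acidifies the lysosome, the median was -0.26. It was -0.32 over 17 other membrane proteins and -0.17 over 32 genes listed as other hydrolases. That last list includes Npc2, Psap and Gm2a, which are not hydrolases themselves. For the 17 membrane proteins 10 had all hypoxia arrays below all normoxia arrays, as had 22 of the 92 genes together, against 14.5% of all genes, and 0 of the 92 had them above (1.87% of all genes).

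Uvrag, a partner of Becn1 in the lipid kinase complex, fell furthest. Its arrays read 4.38, 4.56, 4.21 and 4.23 in normoxia and 3.74, 3.46, 3.55 and 3.49 in hypoxia, with a clear gap between the groups. The log2 fold change was -0.79 (SE 0.13, 95% interval -1.08 to -0.50), or 1.73-fold lower, with an adjusted p of 0.0303. Clcn7, the lysosomal chloride and proton exchanger, read 3.99, 4.51, 4.28 and 4.11 in normoxia and 3.61, 3.50, 3.43 and 3.27 in hypoxia, with -0.77 for the log2 fold change (SE 0.15, adjusted p = 0.0437). Atp6v0a1, a membrane subunit of the V-ATPase, read 4.95, 5.43, 5.25 and 5.00 against 4.54, 4.44, 4.42 and 4.25, with -0.74 (SE 0.14, adjusted p = 0.0456). In all 3 genes each hypoxia array lay below each normoxia array. These calls were not stable: leaving out any 1 array ended those of Clcn7 and Atp6v0a1, with adjusted p up to 0.16, and only without hypoxia replicate 1 was Uvrag still called, with adjusted p from 0.0454 to 0.0899. After centring 0 of the 92 genes were called, with fold changes of -0.60, -0.58 and -0.55 for Uvrag, Clcn7 and Atp6v0a1. Neither Wdfy3, an adaptor for protein aggregates, with -0.29 (adjusted p = 0.29), nor Sgsh, a heparan sulfate sulfatase, with -0.46 (adjusted p = 0.085), was called.

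**Figure D4:**
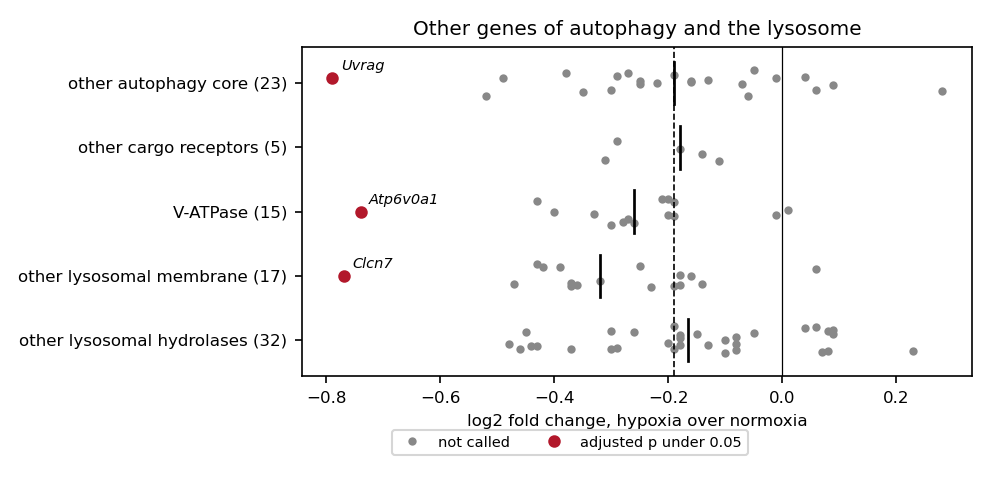
Log2 fold change of 92 further genes of autophagy and the lysosome, 1 point per gene, in 5 lists with the number of genes in parentheses. Vertical bars are list medians and the dashed line is the median of all genes (-0.19). The 3 genes called by limma (Uvrag, Atp6v0a1 and Clcn7, in red) lie between -0.79 and -0.74, left of all other points.

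**Figure D5:**
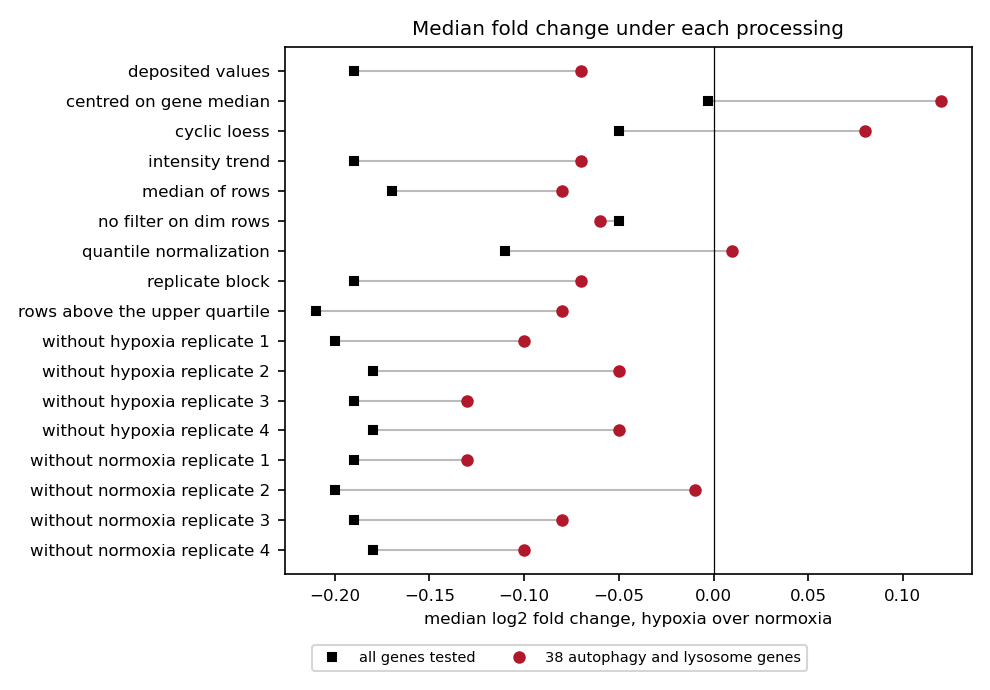
Median log2 fold change of the 38 genes (circles) and of all genes tested (squares) with the values as deposited and under 16 other ways of processing. The circles move from -0.13 to 0.12, and lie to the right of the squares in every setting drawn except the one with no filter on dim probe sets (-0.06 and -0.05).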

How the data were processed

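The authors deposited linear signal intensity for 641130 probe sets on 8 arrays (0.794 to 8358). Their background correction, normalization and summary are not given in the sources used here. Array medians lay between 2.38 and 2.44 on the log2 scale, so values were used as deposited, with no pseudocount. All columns were assigned to samples. The platform annotation named 1 gene for 307991 probe sets (48%), several for 7047 and none for 326092. Of 21842 symbols 17794 were current in RefSeq (GRCm38.p6), 3985 were updated through synonyms and 63 kept. A gene's value was its mean log2 intensity over probe sets naming that gene alone with a mean at or above the table median (2.35). This kept 191376 probe sets (median 7 per gene), 602 of 718 for the 38 genes, and averages over exon use. The 2-sided comparison of the groups used lmFit and eBayes of limma 3.58.1 (R 4.3.3) without covariates, and p-values were adjusted by Benjamini-Hochberg, with 0.05 as threshold. The step was tested on simulated data, where it called 10% of changes of 0.5 on the log2 scale. It called 52% of changes of 1, 72% of 1.5 and 96% of 2 (50 genes each). The changed genes were drawn at random from all 18848, so these shares are not specific to the 38 genes. Median SDs were 0.22 in normoxia and 0.25 in hypoxia over all genes, against 0.14 and 0.17 over the 38. Some of the further pathway genes are not reported here.

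The 38 genes, their roles, the other lists and the alternatives were chosen with earlier results of these data known. Array values are given for called genes and for the gene of each role furthest from 0. Of each other list, up to 4 called genes are named or, with none called, the gene with the lowest p. Outside this rule, array values are also given for Becn1, Atg5, Atg7, Map1lc3b and Ctsl. Alternatives covered the scaling, the filter on dim probe sets, the summary, the variance model, a replicate block and the omission of each array in turn. Plots come from matplotlib 3.10.9. Linear signal on arrays carries no read depth, and the number of arrays limits the precision.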

Additional observations from a re-analysis of the deposited data

Results flagged for a closer look

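Among 86 groups of 4 arrays tested for the genes named above, 6 had 1 array far from the other 3, by a gap that exceeded Dixon's critical value as a share of the group's range. Chance alone gives about 1 such group in 20. In normoxia, replicate 1 was lowest for Becn1 (4.45, others 4.52 to 4.53) and highest for Atg9a (4.85, others 4.71 to 4.73), replicate 2 was highest for Map1lc3a (5.59, others 5.16 to 5.18), and replicate 4 was lowest for Tfe3 (4.30, others 4.37 to 4.38). In hypoxia, replicate 4 was lowest for Mitf (3.09, others 3.58 to 3.67) and for Ctsb (7.39, others 7.72 to 7.76). None of the 6 genes was called with or without the array in question.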

How the results depend on the processing

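None of the 38 genes was called under any of the 17 alternatives, and 21 of the 38 kept the sign of their fold change under all of them, while 17 changed sign under at least 1. Over 43 gene results and 17 alternatives, 603 values kept direction and side of the threshold, 42 lost a call, 0 gained one and 86 changed sign. The median of the 38 genes moved from -0.07 to 0.12 after centring on the gene median, 0.08 after cyclic loess and 0.01 after quantile normalization. Over all genes, 100 were higher, against 217 with no filter on dim probe sets, 40 on relative ranks, 34 with the replicate block and 54 to 74 with 1 array left out. The 150 lower became 8 after centring, 34 after cyclic loess, 53 after quantile normalization, 403 with an intensity trend in the variance, 25 with the median of probe sets, 259 with no filter, 234 above the upper quartile, 18 on relative ranks, 3 with the replicate block and 7 to 51 with 1 array left out. The 3 other pathway genes became 0 after centring, cyclic loess, the median of probe sets, relative ranks and the replicate block, 1 after quantile normalization, 1 above the upper quartile, 4 with the intensity trend, which added Laptm4a, 3 with no filter, and 0 to 1 with 1 array left out. Same-numbered arrays did not deviate together (r = 0.0724, -0.115, 0.0463 and -0.00558). With 4 arrays a group this cannot exclude that same-numbered samples were handled together, which is not stated. Centring moves the all-gene median by its construction. For the other alternatives the cause was not tested.

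After centring, the values that changed sign were Atg12 0.12, Atg13 0.15, Atg14 0.14, Atg3 0.11, Atg9a 0.17, Ctsb 0.07, Ctsd 0.08, Ctsk 0.19, Ctsz 0.13, Gabarapl1 0.16, Gabarapl2 0.07, Lamp1 0.15, Map1lc3b 0.18, Mitf 0.03 and Npc1 0.11. After cyclic loess they were Atg12 0.10, Atg13 0.13, Atg14 0.10, Atg3 0.07, Atg9a 0.13, Ctsk 0.18, Ctsz 0.08, Gabarapl1 0.12, Gabarapl2 0.03, Map1lc3b 0.11, Mitf 0.01 and Npc1 0.08. After quantile normalization they were Atg12 0.05, Atg13 0.06, Atg14 0.03, Atg3 0.01, Atg9a 0.07, Ctsk 0.12, Ctsz 0.03, Gabarapl1 0.06, Map1lc3b 0.06 and Npc1 0.02. With the median of probe sets they were Atg12 0.01, Atg14 0.11, Atg3 0.08, Ctsz 0.18, Gabarapl1 0.0019 and Map1lc3a -0.35. With no filter Atg12 and Atg3 had 0.02. Above the upper quartile they were Atg12 0.01, Atg13 0.02, Gabarapl1 0.01, Gla -0.17, Map1lc3a -0.02, Map1lc3b 0.04 and Mitf 0.09. On relative ranks, in rank points of 100, Atg9a had 0.48, Ctsk 0.81, Gabarapl1 0.12, Lamp1 0.44 and Npc1 0.05. With 1 array left out, the fold change ran from -0.09 to 0.03 for Atg13, from -0.13 to 0.08 for Atg14, from -0.12 to 0.08 for Atg9a, from -0.26 to 0.13 for Atg3, from -0.17 to 0.03 for Atg12, from -0.05 to 0.04 for Map1lc3b, from -0.17 to 0.08 for Gabarapl1, from -0.07 to 0.03 for Lamp1, from -0.18 to 0.01 for Npc1, from -0.18 to 0.15 for Ctsk and from -0.14 to 0.01 for Ctsz.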
